A study of Mus musculus with 15 samples.

Results

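The DOCK8, CDC42, WASP and MST1 axis was described through 8 genes, taken by name: Dock8, Cdc42, Was, Wipf1, Stk4, Mob1a, Mob1b and Lrch1, of 30949 genes listed in all 15 tables. All 8 were found once each and all 8 passed the filter on low values. The cells were regulatory T (Treg) cells, T cells that restrain other immune cells, sorted as CD25+CD39+ from the spleens and lymph nodes of C57BL/6 females with Dock8 floxed on both alleles and a Foxp3 YFP-Cre allele on 1 X chromosome. Cells that used this allele were YFP+ and DOCK8 deficient, called KO here, and YFP- cells of such mice, which did not express Cre, are called WT. The 4 groups were KO with anti-CD3 and anti-CD28 beads (n = 2), WT with beads (n = 3), unstimulated KO (n = 6) and unstimulated WT (n = 4), all cultured for 16 h, with 1 bead per cell where beads were used. KO cells therefore also carried YFP and Cre in Foxp3, and both genotypes carried floxed Dock8. The growth protocol names CD3 and the design CD4 for the sort. Samples are labelled independent, with no word on separate animals or cultures, so each p-value measures only the spread among these samples, which may be technical. In such bulk samples, fewer cells of a type and less RNA per cell cannot be told apart.

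DOCK8 is a guanine nucleotide exchange factor: it loads the small GTPase CDC42 with GTP at the leading edge and at the immune synapse of lymphocytes. Active CDC42 opens the WAS protein (WASP), which then switches on the Arp2/3 complex to build branched actin. WIP, the product of Wipf1, holds WASP in a stable complex and links it to DOCK8. The kinase MST1, the product of Stk4, phosphorylates the MOB1 adaptors, which in mouse thymocytes promotes their binding to DOCK8. LRCH1 has been described as a binding partner that restrains DOCK8 in T cells. Loss of DOCK8, WASP, WIP or MST1 each causes an immunodeficiency in humans.

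TPM values, the scaled transcript abundances that the authors deposited, divide a total among transcripts, per length. Levels of different genes can therefore be set side by side, and each level depends on what fills the rest of the library. The deposited gene lists differed by treatment, with 36904 genes for unstimulated libraries and 31785 for bead libraries. TPM per library summed to 864858 to 938140 in unstimulated KO and 839060 to 912942 in unstimulated WT. With beads the sum was 832440 to 844008 in KO and 819698 to 836765 in WT. The part of these unlike gene lists in the bead differences and in the predicted-gene shares was not tested. Predicted genes, those with a Gm symbol, held 36.9 ± 4.60% of TPM in KO with beads (SD, n = 2), 29.2 ± 2.33% in WT with beads (n = 3), 68.3 ± 6.54% in unstimulated KO (n = 6) and 56.6 ± 8.94% in unstimulated WT (n = 4). Differences are therefore given as deposited and, where it matters, scaled to 893 abundant genes ("scaled") or divided by the share of TPM outside predicted genes ("rescaled"). Rescaling took this share among genes listed in all tables, while the percentages above are over each whole table. The median difference of all 29989 genes tested between unstimulated KO and WT was -0.11 as deposited, 0.12 scaled and 0.18 rescaled on the log2 scale. For beads in KO it was -0.23, -0.45 and -0.87, and for beads in WT it was -0.44, -0.41 and -0.95. Treg markers were present: Foxp3 had 42.2 to 42.7 TPM in KO with beads, 88.6 to 105.8 TPM in WT with beads, 6.29 to 25.98 TPM in unstimulated KO and 29.3 to 51.6 TPM in unstimulated WT. Summed TPM of 6 Treg markers was 1112 to 1280 in KO and 1072 to 1188 in WT with beads. Without beads it was 273 to 450 in KO and 380 to 549 in WT. By group medians with beads, Ctla4, Tnfrsf18 and Entpd1 were higher in KO than in WT, and Foxp3, Il2ra and Ikzf2 lower. Without beads only Entpd1 was higher in KO. Summed TPM of other lineages was at most 69.2 for 5 CD8 T and NK cell markers, 26.6 for 4 B cell markers and 8.80 for 4 myeloid markers. It was at most 15.1 for 3 neutrophil markers, 28 for 3 erythroid markers and 84.3 for 5 stromal markers. In unstimulated KO the CD8 T and NK cell sum was 24.2 to 48.7 TPM, beside 6.29 to 25.98 TPM of Foxp3. The purity of the sort was not tested. S100a9 was at 0 in both KO bead libraries, where the 3 neutrophil markers still summed to 1.45 to 5.71 TPM. The part that the predicted-gene share plays in the differences below was not tested.

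In plain terms, Cdc42 was the most abundant of the 8 in every group, followed at some distance by Mob1a, Stk4 and Was, while Dock8, Wipf1, Mob1b and Lrch1 were lower. With beads, Cdc42 rose in KO cells and Was fell in WT cells as deposited, and no other member passed the test there. All 8 had lower mean log2 levels in unstimulated KO than in unstimulated WT cells, with none past the test, and scaling took Mob1b and Lrch1 to the other side of 0.

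**Figure D1:**
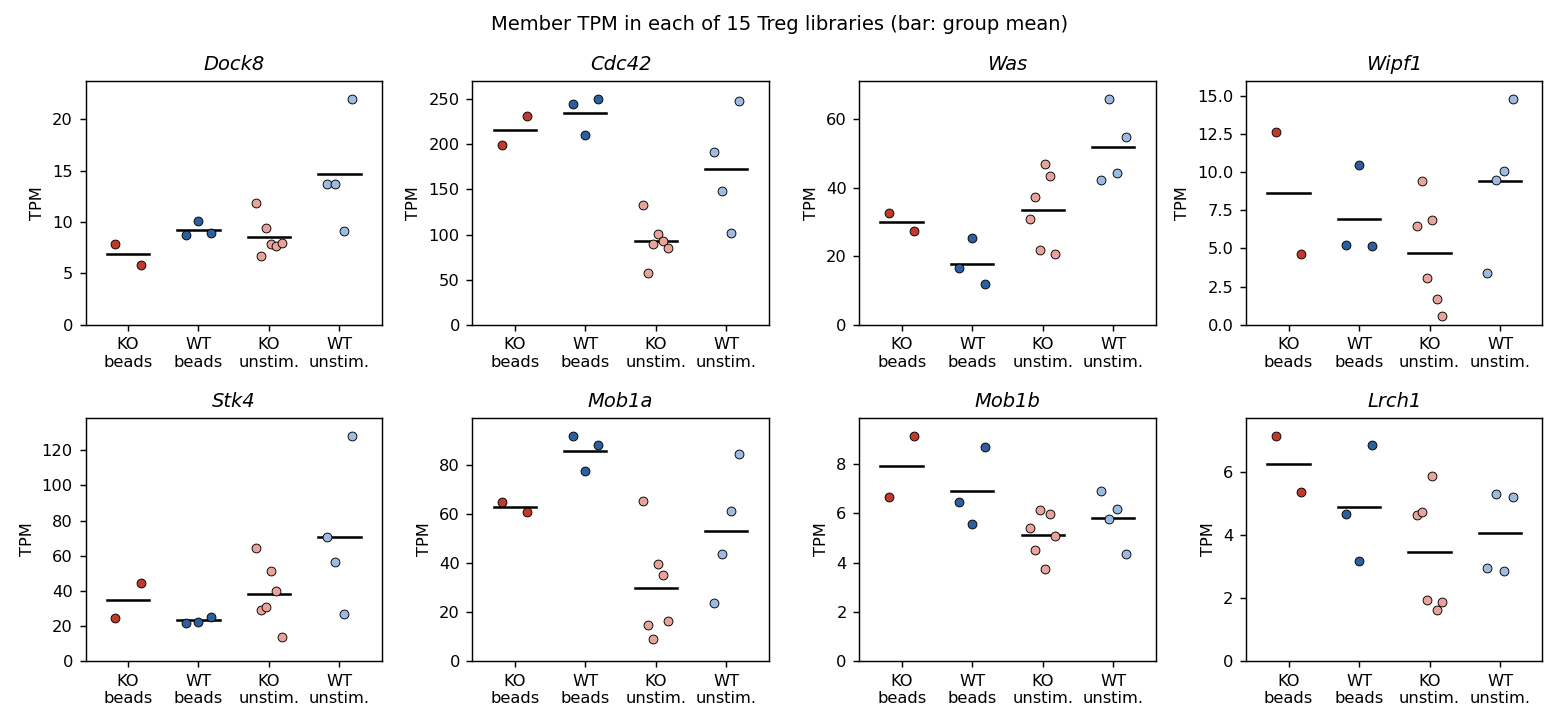
TPM (y axis, from 0) of each of the 8 genes in 15 libraries, with 1 point per library and a bar at the group mean, for KO with beads, WT with beads, unstimulated KO and unstimulated WT (x axis). Cdc42 lay at 199 to 232 TPM in KO with beads, above all 6 unstimulated KO libraries, and Was at 11.8 to 25.2 TPM in WT with beads, below all 4 unstimulated WT libraries.

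Dock8 (ENSMUSG00000052085, chromosome 19, 24999534 to 25202432, plus strand, mm10), the exchange factor and the floxed gene, was still read in KO cells. It had 7.90 and 5.82 TPM in the KO bead libraries 4 and 5, against 8.71, 10.1 and 8.91 TPM in the WT bead libraries 1 to 3. Without beads it had 6.70, 7.90 and 11.9 TPM as the lowest, median and highest of 6 KO libraries, against 13.7, 13.7, 9.15 and 21.98 TPM in the WT libraries, given here and below as the unnumbered library and then by number. With beads both KO libraries lay below all 3 WT libraries, and without beads 4 of 6 KO libraries lay below all 4 WT libraries while the groups overlapped.

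The Dock8 difference between KO and WT was -0.67 ± 0.27 on the log2(TPM + 1) scale without beads (limma SE, adjusted p = 0.368, 95% interval -1.24 to -0.09). The exact two-sided permutation p for 6 against 4 libraries was 0.01905, where 210 assignments allow no less than 0.00476. Scaled and rescaled, the difference was -0.32 and -0.25. With beads it was -0.39 ± 0.38 (adjusted p = 1.0 in limma), and the exact permutation p of 0.1 was the smallest that 10 assignments allow. TPM sum over the whole gene, so transcript of a recombined allele still counts as Dock8, and no source used here names the exons that Cre removes. Because KO and WT cells also differ in which X chromosome is in use, this cannot be told apart from DOCK8 deficiency in any of the genotype comparisons.

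With beads, Dock8 differed from its unstimulated level by -0.28 ± 0.34 in KO cells (adjusted p = 0.699 in limma) and by -0.55 ± 0.32 in WT cells (adjusted p = 0.295) as deposited. Neither passed the test there. Rescaled without predicted genes, both did, at -1.26 in KO (adjusted p = 0.0154) and -1.26 in WT (adjusted p = 0.00915), while median-ratio scaling gave 0.02 in WT. Over all alternatives the adjusted p ranged from 0.0154 to 0.946 in KO and from 0.00915 to 0.979 in WT, so the size of a bead response of Dock8 rests on the scaling. In the order of group means, WT with beads stood at 9.25 ± 0.763 TPM, close to unstimulated KO at 8.58 ± 1.85 TPM, and these neighbours overlapped.

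The genes most like Dock8 over the 15 libraries, by Pearson r of log2(TPM + 1) among 5965 genes whose group means were all 5 TPM or more, were Lpxn (r = 0.947, Spearman 0.939), Zfp36l2 (r = 0.89, Spearman 0.682), Itm2b (r = 0.883, Spearman 0.714), Ppil2 (r = 0.883, Spearman 0.771) and Emb (r = 0.858, Spearman 0.75). Lpxn encodes leupaxin, a paxillin relative of focal adhesions. They were picked for this likeness, and the 15 libraries share the group structure and the predicted-gene share above, so the values are a description. Among the other 7 members, Stk4 was closest to Dock8 (r = 0.674) and Mob1b farthest (r = -0.271).

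Cdc42 (ENSMUSG00000006699, chromosome 4, 137319696 to 137357720, minus strand), the GTPase that DOCK8 activates, and Was (ENSMUSG00000031165, chromosome X, 8081453 to 8090498, minus strand), its actin-nucleation partner, were the members that passed the test as deposited. Their promoters are shown because as deposited Cdc42 rose with beads in KO cells and Was fell in WT cells. Capitals mark matches of 4 motifs on either strand: the ETS core GGAA, the AP-1 site TGANTCA, the STAT site TTCNNNGAA and the cyclic AMP response element TGACGTCA. The windows are RefSeq promoters of 300 bases on GRCm38.p6, chr4:137357710-137358009 for Cdc42 and chrX:8090442-8090741 for Was, both on the minus strand.

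Cdc42: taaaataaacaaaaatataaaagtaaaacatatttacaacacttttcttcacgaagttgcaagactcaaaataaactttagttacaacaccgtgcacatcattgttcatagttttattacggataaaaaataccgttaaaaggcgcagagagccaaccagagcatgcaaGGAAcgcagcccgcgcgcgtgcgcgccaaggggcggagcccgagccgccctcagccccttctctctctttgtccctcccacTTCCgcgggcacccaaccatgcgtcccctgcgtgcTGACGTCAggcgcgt

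Was: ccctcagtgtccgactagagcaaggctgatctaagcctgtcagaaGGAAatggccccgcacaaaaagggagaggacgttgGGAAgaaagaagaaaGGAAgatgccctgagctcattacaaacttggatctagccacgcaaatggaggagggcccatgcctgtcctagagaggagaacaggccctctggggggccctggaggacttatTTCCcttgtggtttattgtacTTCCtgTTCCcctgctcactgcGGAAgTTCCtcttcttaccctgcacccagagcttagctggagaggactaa

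The Cdc42 window held 2 ETS core matches and 1 cyclic AMP response element, a motif in 1.8% of 32851 promoters of this length, and had 49.3% G and C. The Was window held 8 ETS core matches and no match of the other motifs, with 53.3% G and C. The ETS core is short and was in 96.0% of all promoters, with a median of 3.0 matches. All 8 genes matched an entry, 10 promoters in all with 3 for Wipf1. The cyclic AMP response element was in 1 of these 10, and the AP-1 and STAT sites, in 7.8% and 8.3% of all promoters, were in 0 of them. No motif overlapped another in the Cdc42 and Was windows.

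Cdc42 had 199 and 232 TPM in KO bead libraries 4 and 5, against 132.9, 56.8, 88.9, 101.1, 92.8 and 85.4 TPM in the unstimulated KO libraries. Both bead libraries lay above all 6 unstimulated ones. It rose with beads in KO cells by 1.24 ± 0.34 on the log2 scale (limma adjusted p = 0.0367, 95% interval 0.51 to 1.97, exact permutation p = 0.0357, the smallest possible). This was 1 of 8 members called higher, where 5.95% of all genes were called higher, and 2 of 8 members lay above every unstimulated library without overlap, Cdc42 and Mob1b, against 11.2% of all genes. The call was lost when scaled (0.78, adjusted p = 0.0906) and when rescaled (0.23, adjusted p = 0.573), in a range of 0.00819 to 0.573 over the alternatives, and in 9 of the 15 fits that left out 1 library, with an adjusted p of 0.307 without KO bead library 5, 0.182 without KO bead library 4 and 0.05015 to 0.0555 for the other 7.

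In WT cells, Cdc42 had 244, 210 and 250 TPM with beads, against 191.6, 148.4, 101.7 and 247.5 TPM without. The groups overlapped at the upper end, where WT library 3 without beads was as high as the bead libraries. The difference was 0.51 ± 0.32 (adjusted p = 0.331 in limma), with 0.53 scaled, -0.21 rescaled and 1.14 with median-ratio scaling, where it passed the test (adjusted p = 0.035), in a range of 0.035 to 0.773 over the alternatives.

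Between genotypes without beads, Cdc42 differed by -0.85 ± 0.27, and 5 of 6 KO libraries lay below all 4 WT libraries. Its unadjusted p was the smallest of the 8 (0.00661, adjusted p = 0.254 in limma, exact permutation p = 0.0143). Scaled it was -0.48 and rescaled -0.40. With beads the difference was -0.12 ± 0.38, and the groups overlapped.

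Was had 16.5, 25.2 and 11.8 TPM in WT bead libraries 1 to 3, against 42.2, 65.8, 44.3 and 54.8 TPM in the unstimulated WT libraries. All 3 bead libraries lay below all 4 unstimulated ones. Was fell by 1.53 on the log2 scale in WT cells (SE 0.35, adjusted p = 0.0110 in limma, 95% interval -2.27 to -0.78, exact permutation p = 0.0286, the smallest possible), as 1 of 8 members called lower where 6.63% of all genes were. Scaled and rescaled it was -1.50 and -2.26, both past the test (adjusted p = 0.00492 and 0.000409). Median-ratio scaling took it to -0.92 (adjusted p = 0.0541) and leaving out WT bead library 3 to -1.28 (adjusted p = 0.0711), the highest over the alternatives.

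In KO cells, Was had 32.5 and 27.4 TPM with beads, against 30.8, 37.4, 21.9, 46.9, 43.5 and 20.6 TPM without. The bead libraries lay inside the unstimulated range. The difference was -0.10 ± 0.37 as deposited (adjusted p = 0.915 in limma), -0.55 scaled and -1.10 rescaled, where it passed the test (adjusted p = 0.0426), in a range of 0.0426 to 1.0. The difference between the 2 responses, KO minus WT, was 1.43 ± 0.51, with an unadjusted p of 0.0132 and an adjusted p of 0.999 in limma, so the bead response of Was was not shown to differ between genotypes.

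Between genotypes, Was lay on opposite sides with and without beads. With beads its level was higher in KO than in WT cells, at 32.5 and 27.4 TPM against 16.5, 25.2 and 11.8 TPM, without overlap, at 0.77 ± 0.42 (adjusted p = 1.0 in limma, exact permutation p = 0.2, where 0.1 is the smallest possible). Without beads the difference was -0.66 ± 0.29 (adjusted p = 0.419, exact permutation p = 0.0524), with 4 of 6 KO libraries below all 4 WT libraries. Neither difference passed the test. Was lies 486 kb from Foxp3, which carries YFP-Cre, on the X chromosome, and which copy of the chromosome a cell uses goes with its genotype label. Its paralog Wasl, the widely expressed N-WASP, had 14.5 ± 7.97 TPM in KO with beads, 12.7 ± 7.66 TPM in WT with beads, 17.4 ± 5.47 TPM in unstimulated KO and 15.7 ± 4.28 TPM in unstimulated WT. Was made up 68.1 ± 14.8% of the summed TPM of both in KO with beads, 59.9 ± 5.27% in WT with beads, 65.5 ± 8.32% in unstimulated KO and 76.5 ± 5.49% in unstimulated WT.

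Wipf1 (ENSMUSG00000075284, chromosome 2, 73429610 to 73529734, minus strand), whose locus overlaps the predicted gene Gm13708 on the other strand, was low and uneven. It had 12.7 and 4.65 TPM in KO with beads, 5.25, 10.4 and 5.19 TPM in WT with beads, 0.589 to 9.46 TPM in unstimulated KO (median 4.77) and 3.38, 9.49, 10.1 and 14.8 TPM in unstimulated WT. The groups overlapped in each comparison, with none past the test. Its difference between KO and WT was -1.01 ± 0.53 without beads, the largest of the 8 in size as deposited (adjusted p = 0.498 in limma), and 0.20 ± 0.76 with beads, where leaving out KO bead library 4 gave -0.43. Wipf1 made up 69.3 ± 21.1% of the summed TPM with its relative Wipf2 in KO with beads, 74.2 ± 5.87% in WT with beads, 38.1 ± 20.01% in unstimulated KO and 62.6 ± 11.3% in unstimulated WT.

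Stk4 (ENSMUSG00000018209, chromosome 2, 164070322 to 164155524, plus strand), which encodes the Hippo kinase MST1, overlaps Tomm34 on the other strand and an antisense gene, and no source used here says whether strand was used, so reads of these genes cannot be told apart. It had 22.1, 22.5 and 25.2 TPM in WT bead libraries 1 to 3, against 70.5, 56.2, 27.0 and 128.1 TPM in the unstimulated WT libraries. All bead libraries lay below all unstimulated ones, though WT library 2 was close to them. The difference was -1.36 ± 0.51 (adjusted p = 0.104 in limma, exact permutation p = 0.0571), so it did not pass the test as deposited. Stk4 and Was were the 2 of 8 members below every unstimulated WT library, where 20.9% of all genes were and 8.61% lay above.

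Rescaled without predicted genes, Stk4 passed the test in WT cells at -2.08 (adjusted p = 0.00194), in a range of adjusted p from 0.00194 to 0.395 over the alternatives. In KO cells it had 24.9 and 44.4 TPM with beads, inside the unstimulated KO range of 13.6 to 64.5 TPM (median 35.6), and the difference was -0.05 ± 0.55 as deposited and -1.06 rescaled (adjusted p = 0.0936, range 0.0936 to 0.999). Between genotypes it was -0.80 ± 0.43 without beads (adjusted p = 0.511) and 0.50 ± 0.61 with beads. Stk4 was well above its paralog Stk3, which encodes MST2: it made up 91.4 ± 2.56% of their summed TPM in KO with beads, 85.5 ± 10.5% in WT with beads, 81.7 ± 14.3% in unstimulated KO and 92.8 ± 5.28% in unstimulated WT.

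The MOB1 adaptors are closely related proteins made by Mob1a (ENSMUSG00000043131, chromosome 6, 83326016 to 83343776, plus strand) and Mob1b (ENSMUSG00000006262, chromosome 5, 88720855 to 88764220, plus strand). Their coding sequences, 648 and 663 bases in GENCODE vM21, were 77.8% identical over the alignment, with 20 bases as the longest identical run and 0% of stretches of 31 bases shared between the transcripts compared. The window around that run is shown, coding bases 299 to 358 of Mob1a and 314 to 373 of Mob1b, because it shows how closely the 2 genes resemble each other where they are most alike. Capitals mark bases that differ.

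Mob1a: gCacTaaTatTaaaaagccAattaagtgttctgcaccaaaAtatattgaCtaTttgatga

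Mob1b: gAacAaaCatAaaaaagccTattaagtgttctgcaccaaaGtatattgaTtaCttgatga

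Mob1a had 65.1 and 60.8 TPM in KO bead libraries, 91.8, 77.4 and 87.9 TPM in WT bead libraries, 9.03 to 65.3 TPM in unstimulated KO (median 25.8) and 23.6, 43.8, 61.1 and 84.3 TPM in unstimulated WT. Both KO bead libraries lay below all 3 WT bead libraries, and the unstimulated groups overlapped. Mob1b was lower in every library, at 6.67 and 9.13 TPM in KO with beads, 6.45, 5.55 and 8.70 TPM in WT with beads, 3.73 to 6.12 TPM in unstimulated KO (median 5.23) and 6.89, 5.75, 6.17 and 4.36 TPM in unstimulated WT.

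The bead difference of Mob1a was 1.33 ± 0.60 in KO cells (adjusted p = 0.209 in limma) and 0.82 ± 0.56 in WT cells (adjusted p = 0.378), neither past the test, and rescaled it was 0.35 and 0.10. Between KO and WT it was -0.95 ± 0.47 without beads (adjusted p = 0.467) and -0.44 ± 0.67 with beads. Mob1b differed by 0.54 ± 0.33 with beads in KO cells, where both bead libraries lay above all 6 unstimulated ones (exact permutation p = 0.0357, adjusted p = 0.376 in limma), but by -0.37 when rescaled, and by -0.15 ± 0.26 between unstimulated KO and WT, where it was 0.17 scaled and 0.27 rescaled. Summed, the MOB1 genes gave -0.82 ± 0.40 between unstimulated KO and WT and 1.19 ± 0.50 for beads in KO, with adjusted p of 0.456 and 0.181. Mob1a made up 88.8 ± 2.66% of the MOB1 sum in KO with beads, 92.6 ± 1.38% in WT with beads, 80.3 ± 12.3% in unstimulated KO and 87.9 ± 7.55% in unstimulated WT.

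Lrch1 (ENSMUSG00000068015, chromosome 14, 74754675 to 74947876, minus strand), the DOCK8 binding partner, had the lowest mean of the 8 in all 4 groups and overlaps an antisense gene. It had 7.13 and 5.36 TPM in KO with beads, 4.65, 3.17 and 6.83 TPM in WT with beads, 1.62 to 5.87 TPM in unstimulated KO (median 3.29) and 2.94, 5.28, 2.87 and 5.18 TPM in unstimulated WT. All groups overlapped, and no difference passed the test: 0.34 ± 0.51 between KO and WT with beads, -0.26 ± 0.36 without, 0.80 ± 0.46 for beads in KO and 0.21 ± 0.43 for beads in WT. Its relatives Lrch4 and Lrch3 were above it in every group mean, at 13.2 and 12.9 TPM in KO with beads, 10.5 and 11.5 TPM in WT with beads, 15.5 and 8.46 TPM in unstimulated KO and 16.7 and 13.7 TPM in unstimulated WT. Lrch2 averaged 0.912 TPM in KO with beads, 1.79 TPM in WT with beads, 4.41 TPM in unstimulated KO and 2.55 TPM in unstimulated WT, below Lrch1 in all but unstimulated KO.

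Ratios of 2 members within a library do not depend on how the library was scaled, and were chosen after their values were seen, so they are given without a test. Cdc42 over Was was 6.13 and 8.46 in KO with beads, 14.8, 8.33 and 21.2 in WT with beads, 1.52 to 4.32 in unstimulated KO and 2.25 to 4.54 in unstimulated WT. Every bead library of either genotype lay above every unstimulated library. Cdc42 over Dock8 was 25.2 and 39.8 in KO with beads, 28.1, 20.8 and 28.1 in WT with beads, 8.48 to 12.9 in unstimulated KO and 10.8 to 14.0 in unstimulated WT, again with all bead libraries above. Mob1a over Stk4 was 2.62 and 1.37 in KO with beads, against 0.291 to 1.21 in unstimulated KO, and 3.44 to 4.16 in WT with beads, against 0.334 to 2.27 in unstimulated WT. The genotypes overlapped in the unstimulated libraries for all 3 ratios.

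**Figure D2:**
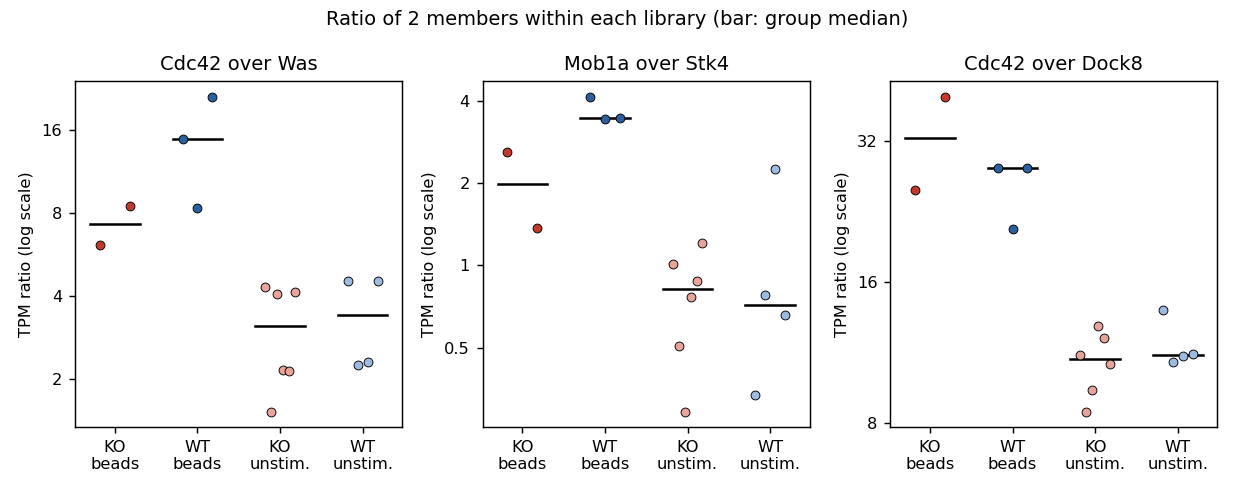
Ratio of the TPM of 2 members within each library (y axis, log scale), with 1 point per library and a bar at the group median, for KO with beads, WT with beads, unstimulated KO and unstimulated WT (x axis). Cdc42 over Was was 6.13 or more in all 5 bead libraries and 4.54 or less in all 10 unstimulated ones, and Cdc42 over Dock8 was 20.8 or more and 14.0 or less.

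Across the 8 members, limma called 0 between KO and WT without beads, where 0.0734% of all genes were called. Of the 8, 3 had an unadjusted p under 0.05 (Cdc42, Dock8 and Was), beside 3386 of 29989 genes. All 8 differences were below 0 as deposited, with a median of -0.73 beside -0.11 over all genes and -0.44 over 5937 genes that reached a mean of 20 TPM in some group, 76.5% of which were below 0. Scaled, 6 of 8 were below 0 with a median of -0.38, and rescaled 6 of 8 with a median of -0.31. No member was without overlap in this comparison, where 1.27% of all genes lay lower and 0.293% higher without overlap. Summed TPM of 4 T cell markers was 208 to 409 in unstimulated KO and 463 to 937 in unstimulated WT, without overlap, and its part in these differences was not tested.

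With beads, limma called 0 of 8 between KO and WT, where 0.00333% of all genes were called. None of the 8 had an unadjusted p under 0.05, beside 868 of 29989 genes. Dock8 and Mob1a lay lower and Was higher without overlap, 2 and 1 of 8, beside 8.02% and 17.4% of all genes. The median was 0.19 as deposited and 0.35 rescaled, beside 0.13 and 0.25 over all genes. With 2 KO libraries the 95% intervals ran from -0.94 to 0.69 for Cdc42 and from -0.11 to 1.66 for Was.

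For beads against unstimulated cells, limma called 1 of 8 in KO (Cdc42, higher) where 8.11% of all genes were called, 5.95% higher and 2.15% lower. It called 1 of 8 in WT (Was, lower) where 11.2% of all genes were called, 4.6% higher and 6.63% lower. Rescaled, it called 2 of 8 in KO (Dock8 and Was) and 3 of 8 in WT (Dock8, Was and Stk4), each lower. The split of all calls moved with the scaling: in KO it was 1785 higher and 646 lower as deposited, 1292 and 1780 scaled, 2276 and 550 with median-ratio scaling and 747 and 4495 rescaled. In WT it was 1378 higher and 1988 lower as deposited, 1483 and 1704 scaled, 2550 and 621 with median-ratio scaling and 688 and 5243 rescaled. In KO, 11.5% of all genes lay lower without overlap, and 0 of 8 members.

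Under every one of these 4 scalings the bead difference in WT cells was lowest for Was and next lowest for Stk4 among the 8. Each scaling divides a whole library by 1 factor, so this order could hardly change and adds no support. The summed TPM of 5 stromal markers differed with the beads as well. It was 16.5 to 31.2 in KO with beads and 33.8 to 84.3 in unstimulated KO. In WT it was 14.9 to 23.5 with beads and 46.3 to 63.1 without. Pecam1 was the highest of the 5, at up to 19.0 and 53.6 TPM in KO with and without beads, and 11.9 and 45.9 TPM in WT. The highest Col1a1 value in WT went the other way, at 8.42 TPM with beads and 3.70 TPM without. The part of these markers in the bead differences was not tested. Between the responses, KO minus WT, limma called 0 of 8, where 0.00333% of all genes were called. An unadjusted p under 0.05 was found for 1 of 8 (Was), beside 1247 of 29989 genes. All 8 differences were above 0 as deposited, with a median of 0.66 beside 0.27 over all genes, 34.6% of which were below 0. The 5937 genes that reached a mean of 20 TPM in some group had a median of 0.47, with 21.8% below 0. Scaled, 6 of 8 were above 0, with a median of 0.23.

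**Figure D3:**
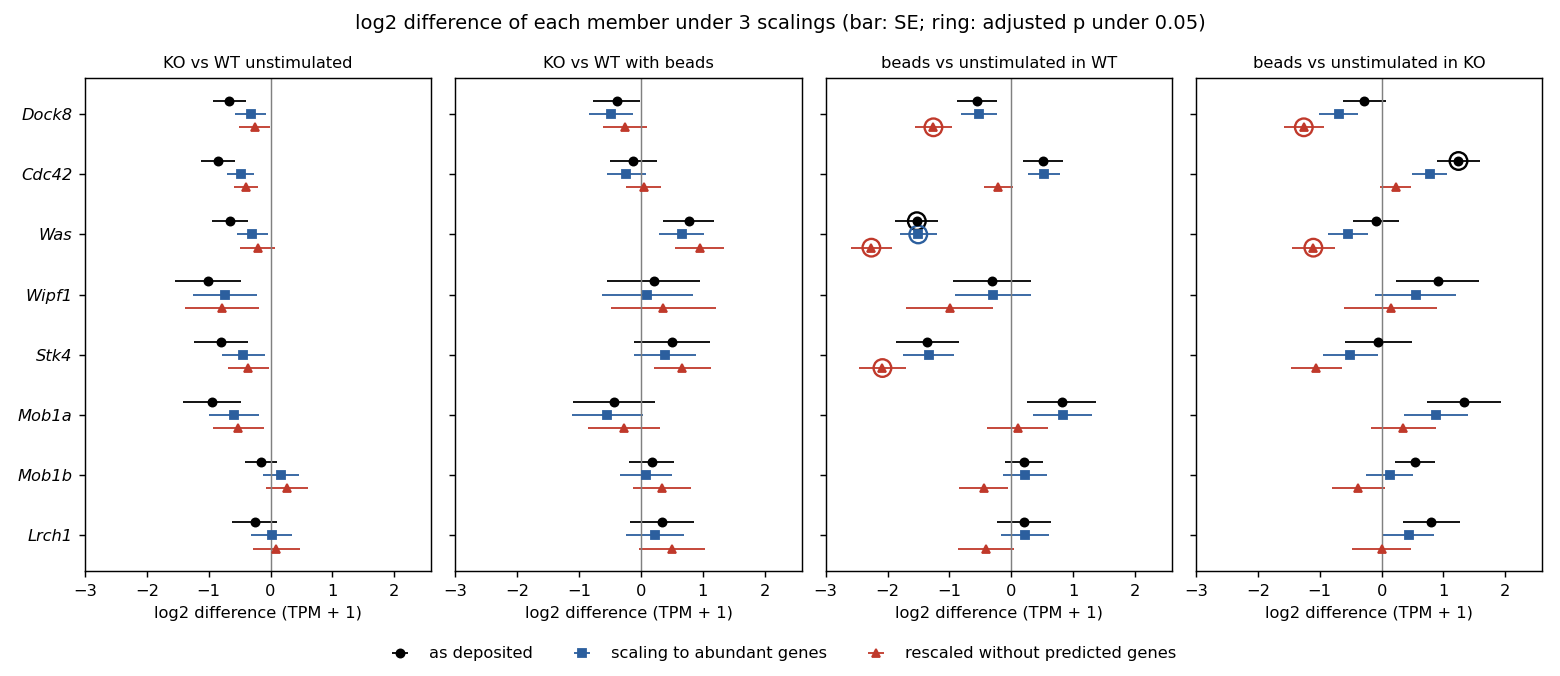
log2 difference of log2(TPM + 1) of each of the 8 genes (x axis, bar: limma SE) in 4 comparisons (panels), as deposited (black circles), scaled to abundant genes (blue squares) and rescaled without predicted genes (red triangles). A ring marks an adjusted p under 0.05, as for Was with beads in WT under all 3 scalings and for Cdc42 with beads in KO as deposited only.

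Downstream of WASP, the Arp2/3 and WASP family list held 32 genes, 31 of them tested. As deposited, with beads in KO cells 6 of 31 rose and 0 fell, where 5.95% of all genes were called higher and 2.15% lower. In WT cells 1 of 31 rose and 0 fell, where 4.6% of all genes were called higher and 6.63% lower, so 1 of 31 is no more than the share over all genes. The 6 were 5 subunits of the Arp2/3 complex (Actr3, Arpc2, Arpc4, Arpc5 and Arpc5l) and Hcls1, the leukocyte relative of cortactin that steadies actin branches. Arpc4 rose by 2.40 ± 0.52 in KO cells (adjusted p = 0.00963 in limma), at 203.1 ± 15 TPM with beads and 44.5 ± 27.4 TPM without, and Hcls1 by 1.78 ± 0.30 (adjusted p = 0.00206), at 70.0 ± 2.53 TPM with beads and 20.01 ± 4.15 TPM without. In WT cells Arpc5l rose by 1.13 ± 0.32 (adjusted p = 0.0321), at 96.7 ± 7.78 TPM with beads and 44.5 ± 10.4 TPM without.

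The count of 6 was 1 without KO bead library 4 and 0 without KO bead library 5. Rescaled, Hcls1 (0.80, adjusted p = 0.0384) and Arpc4 (1.41, adjusted p = 0.0250) were still called in KO cells, and 5 other genes of the list were called lower. In WT cells 0 were called higher and 5 lower when rescaled. All genes together gave 747 higher and 4495 lower in KO and 688 and 5243 in WT. With median-ratio scaling 8 of 31 were called higher and 0 lower in KO cells, and 10 and 0 in WT cells. Over all genes it gave 2276 higher and 550 lower in KO and 2550 and 621 in WT. Scaled to abundant genes, 5 of 32 were called higher and 2 lower in KO cells, and 3 and 0 in WT cells. The larger count in KO than in WT cells thus depended on the scaling. Over the alternatives the adjusted p ranged from 0.000261 to 0.0513 for Hcls1 and from 0.000871 to 0.117 for Arpc4 in KO cells, and from 0.00115 to 0.31 for Arpc5l in WT cells. The list's median was 0.57 in KO cells as deposited, beside -0.23 over all genes. Among the 5937 genes that reached a mean of 20 TPM in some group, the median was 0.74. Rescaled, the list's median was -0.41, beside -0.87 over all genes. Between genotypes limma called 0 of 31 without beads (7 at an unadjusted p under 0.05) and 0 with beads (0 at an unadjusted p under 0.05). Of all 29989 genes, 3386 without and 868 with beads had an unadjusted p under 0.05. The smallest p without beads was that of Hcls1 (-1.28 ± 0.24, adjusted p = 0.0719) and Actr3 (-0.89 ± 0.26, adjusted p = 0.22). With beads it was that of Cyfip1, of the WAVE complex (-0.79 ± 0.57), and Fnbp1, a membrane-bending adaptor (0.84 ± 0.61).

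Around CDC42, the list of regulators and effectors held 52 genes, 51 tested. With beads 1 of 51 rose and 1 fell in KO cells, where 5.95% of all genes were called higher and 2.15% lower, so neither count is above the share over all genes. In WT cells 1 of 51 rose and 9 fell, where 4.6% of all genes were called higher and 6.63% lower. Arhgdia, which encodes an inhibitor that holds CDC42 and related GTPases in the cytosol, rose in both: by 1.71 ± 0.33 in KO cells (adjusted p = 0.00524), at 172 ± 16.3 TPM with beads and 53.0 ± 14.3 TPM without, and by 1.099 ± 0.31 in WT cells (adjusted p = 0.0329), at 195 ± 11.01 TPM with beads and 95.2 ± 35.4 TPM without. Fgd4, a CDC42 exchange factor, fell in both, at 276 ± 22.9 TPM with beads and 663 ± 113 TPM without in KO cells (-1.24 ± 0.33, adjusted p = 0.0310), and at 195 ± 10.9 TPM with beads and 515 ± 204 TPM without in WT cells (-1.30 ± 0.31, adjusted p = 0.0138). The WT fall with the smallest p was that of Itsn1, which encodes intersectin, also a CDC42 exchange factor, at 1.43 ± 0.844 TPM with beads and 16.2 ± 7.23 TPM without (-2.79 ± 0.64, adjusted p = 0.0116).

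Arhgap15, a GTPase-activating protein, fell by 1.56 on the log2 scale in WT cells (SE 0.38, adjusted p = 0.0152) and Cdc42se2, a small CDC42 effector, fell by 1.204 on the log2 scale (SE 0.30, adjusted p = 0.0196). Median-ratio scaling left 1 lower and 4 higher of 50 in WT cells, where it called 621 of all genes lower and 2550 higher. Rescaling gave 18 lower and 0 higher of 51, where it called 5243 of all genes lower and 688 higher. The 10 calls in WT cells were 1, 4 and 4 without WT bead libraries 1, 2 and 3 and 5 without unstimulated WT library 1 or 2, and the 2 calls in KO cells were 0 without either KO bead library. The median was -0.23 in KO cells, beside -0.23 over all genes, and -0.59 in WT cells, beside -0.44. Between genotypes limma called 0 of 51 without beads (7 at an unadjusted p under 0.05) and 0 with beads (3). The counts at an unadjusted p under 0.05 over all 29989 genes were 3386 and 868. The smallest p without beads was that of Fgd2 (-1.71 ± 0.56) and Arhgdia (-0.80 ± 0.26), each with an adjusted p of 0.264, and with beads that of Plekhg2 (1.88 ± 0.51) and Itsn1 (2.41 ± 0.77).

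Around MST1, the list of Hippo kinases and adaptors held 42 genes, 41 tested. With beads 1 of 41 rose and 1 fell in KO cells, where 5.95% of all genes were called higher and 2.15% lower. In WT cells 0 of 41 rose and 4 fell, where 4.6% of all genes were called higher and 6.63% lower. These counts are near the shares over all genes or below them, and the values that follow describe the single genes, not the list. Stk38, which encodes the MOB-bound kinase NDR1, fell in both, at 57.8 ± 19.9 TPM with beads and 124 ± 27.1 TPM without in KO cells (-1.11 ± 0.30, adjusted p = 0.0334), and at 34.1 ± 4.28 TPM with beads and 90.5 ± 16.9 TPM without in WT cells (-1.37 ± 0.28, adjusted p = 0.00619). In WT cells Rassf2, an MST-binding adaptor, fell by 1.74 on the log2 scale (adjusted p = 0.0191), the coactivator gene Yap1 fell by 2.49 on the log2 scale (adjusted p = 0.0299) and Tead1, which encodes its DNA-binding partner, fell by 1.88 on the log2 scale (adjusted p = 0.0476). Yap1 averaged 0.932 ± 0.265 TPM with beads and 11.6 ± 8.33 TPM without, and Tead1 1.56 ± 1.03 TPM with beads and 8.09 ± 1.57 TPM without. In KO cells Rap1a, a GTPase of integrin activation, rose by 1.62 ± 0.41 as deposited (adjusted p = 0.0245 in limma), a call that was lost when scaled (1.17, adjusted p = 0.0546) and when rescaled (0.64, adjusted p = 0.276), in a range of 0.00452 to 0.276 over the alternatives.

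Median-ratio scaling left 0 of the 4 WT falls and rescaling gave 13 of 41 lower. In WT cells these called 621 and 5243 of all genes lower. Scaling to abundant genes gave 4 lower, without Tead1 (-1.83, adjusted p = 0.0718 in limma, in a range of 0.0109 to 0.268 over the alternatives). The 4 calls were 2, 1 and 1 without WT bead libraries 1, 2 and 3 and 2 without unstimulated WT library 1, 2 or 3, and the 2 calls in KO cells were 0 without either KO bead library and 1 without unstimulated KO library 4. The list's median was -0.33 in KO cells, beside -0.23 over all genes, and -0.38 in WT cells, beside -0.44. Between genotypes limma called 0 of 41 without beads (7 at an unadjusted p under 0.05) and 0 with beads (1). The counts at an unadjusted p under 0.05 over all 29989 genes were 3386 and 868. Without beads Slmap, an adaptor of the phosphatase complex that acts on MST kinases, differed by -1.03 ± 0.33 (adjusted p = 0.256 in limma), and with beads the smallest p was that of Mob3c (1.23 ± 0.55) and Stk38 (0.71 ± 0.33). In none of these 3 lists did limma call a difference between the bead responses of KO and WT cells. An unadjusted p under 0.05 was found there for 1 of 31, 2 of 51 and 2 of 41, beside 1247 of 29989 genes.

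**Figure D4:**
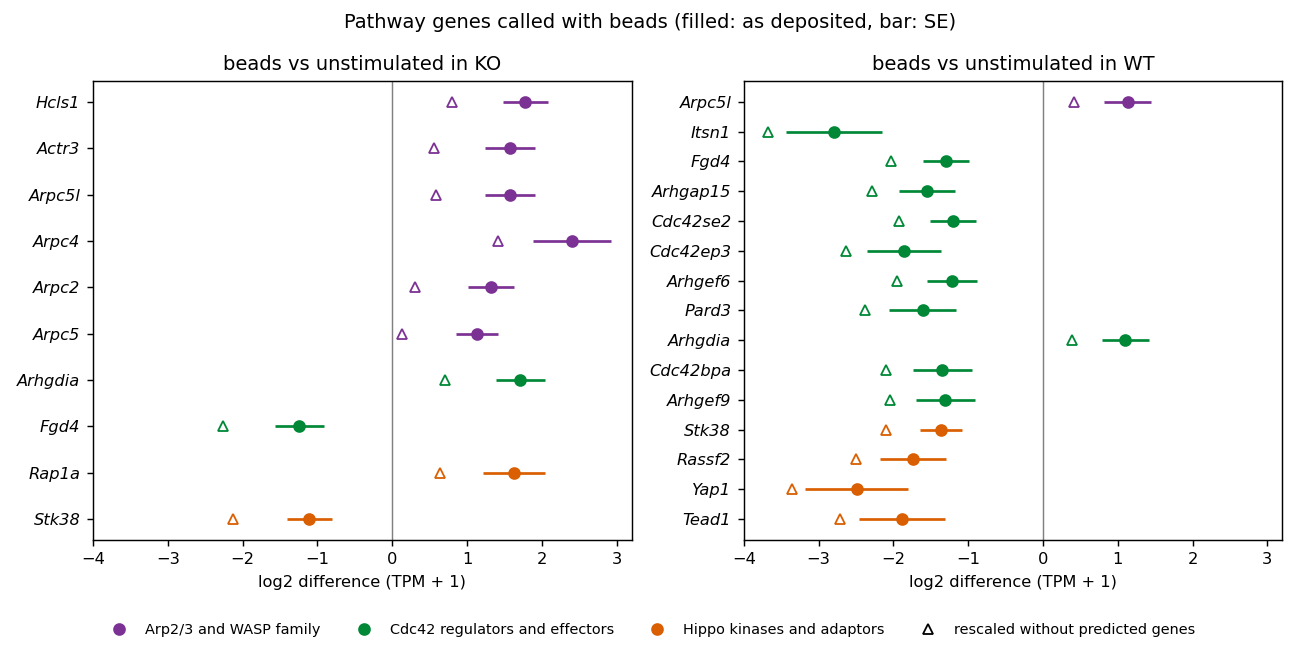
log2 difference of log2(TPM + 1) for each gene called with beads in the 3 lists (x axis, filled circles as deposited with the limma SE, open triangles rescaled without predicted genes), in KO (left) and WT (right). Arp2/3 subunits and Hcls1 lay above 0 in KO cells and 9 of 10 CDC42 genes below 0 in WT cells. All triangles were shifted to lower values, which the rescaling sets by construction, since predicted genes held more of TPM without beads.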

How the data were processed

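Expression was measured by Smart-Seq2 in 15 libraries, grouped by the labels. The authors deposited 1 table of TPM, transcript abundances scaled by length and library total, per library. Per the submitters' processing notes, STAR, Salmon, DESeq2 and the mm10 genome were used, with no version or role stated in the sources at hand. TPM keep no read depth, so read depth is unknown here and counts could not be modelled. Symbols, positions and the coding sequences of the MOB1 genes came from GENCODE vM21 on GRCm38 (mm10), promoters from RefSeq (GRCm38.p6). Of 30949 genes listed in all 15 tables, 29989 had at least 1 TPM in at least 2 libraries. limma 3.58.1 (R 4.3.3) was fitted to log2(TPM + 1) with 1 mean per group and a mean-variance trend (11 residual degrees of freedom), and p-values were adjusted by the Benjamini-Hochberg method over all 29989 genes for each of 5 comparisons. The fit was tested on simulated data without a shift in library make-up, so that test cannot bear on the choice of scaling. Single members were also compared by exact two-sided permutation tests of the absolute difference in mean log2(TPM + 1), over every assignment of libraries to groups (scipy 1.17.1, 32 tests). Members and gene lists were chosen with earlier results of these data known. Named were the 8 members, their paralogs and, per list and comparison, up to 4 called genes with the smallest p, or 2 where none was called; an eligible gene is not reported here. Any gene named beyond that rule, and each ratio of 2 members, was chosen after its values were seen. Alternatives were pseudocounts of 0.1 and 5, leaving the filter off or raising it to 5 TPM, quantile normalization, median-ratio scaling (15083 genes), scaling to the 893 genes averaging 50 TPM or more in all groups, fits of the compared groups alone, array weights, blocking on the number in the title, leaving out both unnumbered libraries, and leaving out single libraries in turn. Values rescaled without predicted genes (a Gm symbol) were added after the data were seen.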

Additional observations from a re-analysis of the deposited data

How the results depend on the processing

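Genes called between KO and WT without beads numbered 22 as deposited, 8 and 13 with pseudocounts of 0.1 and 5, 6 with median-ratio scaling, 8 scaled to abundant genes, 7 with quantile normalization, 4 in the compared groups alone, 5 with array weights, 8 rescaled without predicted genes, 43 without the 2 unnumbered libraries and 5 to 67 with 1 library left out. Between KO and WT with beads they numbered 1, and 2 and 0 with those pseudocounts, 0 scaled to abundant genes, 15 in the compared groups alone, 19 with array weights, 0 rescaled, 2 without the unnumbered libraries and 0 to 3 with 1 library left out. For beads in WT, 3366 became 2097 with quantile normalization, 6042 with array weights, 5931 rescaled and 1654 to 3656 with 1 library left out, lowest without WT bead library 3. For beads in KO, 2431 became 1198 in the compared groups alone, 3961 with array weights, 5242 rescaled and 382 to 2715 with 1 library left out, lowest without KO bead library 5. The difference between responses gave 1, and 3 and 0 with the pseudocounts, 2 with a filter of 5 TPM, 2 with median-ratio scaling, 0 scaled to abundant genes, 0 with quantile normalization, 5 with array weights, 5 without the unnumbered libraries and 0 to 6 with 1 library left out.

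Median-ratio scaling gave log2 differences of 0.024 for Dock8, 1.14 for Cdc42 (past the test, adjusted p = 0.0350 in limma), -0.92 for Was (not past it) and 0.24 for Wipf1 with beads in WT, 0.060 for Was and 0.11 for Stk4 with beads in KO, -0.044 for Wipf1 and -0.073 for Mob1b between genotypes with beads, 0.0056 for Mob1b between genotypes without beads, and -0.16 for Dock8, -0.079 for Mob1b and -0.015 for the MOB1 sum as the difference between responses. Scaling to abundant genes gave 0.78 for Cdc42 with beads in KO (not past the test), 0.17 for Mob1b and 0.022 for Lrch1 between genotypes without beads, and -0.16 for Dock8, -0.093 for Mob1b and -0.027 for the MOB1 sum between responses. Quantile normalization gave 0.77 for Cdc42 with beads in KO (not past the test), 0.11 for Wipf1 with beads in WT and -0.0069 for Mob1b between genotypes with beads.

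Rescaled without predicted genes, Dock8 (-1.26) and Was (-1.10) passed the test with beads in KO and Dock8 (-1.26) and Stk4 (-2.08) in WT. Cdc42 was then 0.23 with beads in KO (not past the test), -0.21 with beads in WT and 0.042 between genotypes with beads, Mob1b -0.37 with beads in KO, -0.44 with beads in WT and 0.27 between genotypes without beads, and Lrch1 -0.41 with beads in WT and 0.10 between genotypes without beads. In the compared groups alone Cdc42 with beads in KO was 1.24 and not past the test, and with array weights Stk4 with beads in WT was -1.29 and past it. Without the unnumbered libraries, Stk4 with beads in KO was 0.12 and the MOB1 sum 1.42, past the test (adjusted p = 0.0441 in limma, range 0.0441 to 0.798).

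With the replicate number as a block over the numbered libraries, counts of called genes in the order above were 1, 0 and, for beads in KO and the difference, 933 and 0. With this replicate block Cdc42 with beads in KO was 1.26 and not past the test (adjusted p = 0.145 in limma, range 0.00819 to 0.573), Stk4 there was 0.48, and Mob1b between genotypes with beads was -0.0098. Deviations from the group means correlated between -0.0372 and 0.0549 in 11 same-number pairs, and between -0.0754 and 0.0892 in 50 different-number pairs. Same-number pairs thus did not stand out. The check cannot exclude pairing by number, because deviations within groups this small are tied to each other. In KO with beads they mirror each other exactly.

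With 1 library left out, Cdc42 with beads in KO ranged from 1.11 to 1.35, Was with beads from -0.22 to 0.022 in KO and -1.80 to -1.28 in WT, Wipf1 between genotypes with beads from -0.43 to 0.84, Stk4 with beads from -0.46 to 0.35 in KO and -1.74 to -1.003 in WT, past the test without unstimulated WT library 2 (adjusted p = 0.0432), Mob1b between genotypes with beads from -0.023 to 0.38 and Lrch1 with beads in WT from -0.024 to 0.43. Of all alternative values for the members and the MOB1 sum, 1156 kept direction and side of the test, 16 lost the call, 8 gained it and 35 turned direction. Many of the 1156 could not turn, because leaving out a library of a group not compared leaves the difference unchanged. Most also had no call to lose, so this tally does not measure stability. Apart from the fits that change scale or samples by construction, the cause was not tested. Read depth is unknown, so no interval for counting error could be given.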
